A study of Homo sapiens with 8 samples.

Results

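The transcripts examined here were those of 10 chemokine genes, CXCL1, CXCL2, CXCL3, CXCL5, CXCL8, CXCL10, CXCL16, CCL2, CCL5 and CCL20, out of 57992 genes counted in RKO cells. The genes were picked by name as chemokines, with their read counts and the difference in CXCL8 between the siRNA groups already known. Levels and A20 siRNA differences of these 10 genes are therefore given as descriptions. Calls and intervals are printed for some of these genes, but no conclusion is drawn from them. RKO is an established human colon carcinoma line. One group of 4 samples received a control siRNA and the other group of 4 received an siRNA against A20, and the cells of both groups had been exposed to recombinant human wnt3a (50 ng/mL) over 24 hours. No unstimulated samples are among the 8, so each comparison is of A20 siRNA against control siRNA with wnt3a present. The siRNA was a partial knockdown in 1 cell line, and the labels do not say whether the replicates were separate experiments, so the spread given here may be technical.

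Chemokines are small secreted proteins that draw leukocytes along a concentration gradient through G protein-coupled receptors. CXCL1, CXCL2, CXCL3, CXCL5 and CXCL8 (interleukin 8) attract neutrophils mainly through CXCR2, and CXCL8 also acts through CXCR1. Their genes lie together on chromosome 4. CXCL10 is induced by interferon and attracts T cells through CXCR3. CXCL16 is made as a membrane-bound protein that can be shed, and its receptor is CXCR6. CCL2, CCL5 and CCL20 attract monocytes, T cells and CCR6-positive cells, respectively. In epithelial cells many of these genes are induced when NFkB is released from its inhibitors, and A20 is an ubiquitin-editing enzyme that restrains NFkB activation.

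The starts of 5 of the clustered genes are shown because CXCL8 differed between the groups whereas its neighbours on chromosome 4 were faint or without reads, and because all 5 carry one and the same NFkB-like stretch. Each line gives the 150 bases just before the RefSeq start of the gene, 5′ to 3′ on the strand of the gene (RefSeq, GRCh38.p14). For CXCL8, CXCL2 and CXCL3 this start lies inside the GENCODE gene bounds given below. Part of each of these windows therefore falls within those bounds, and distances of matches count from the RefSeq start. Capitals mark matches to GGNNNTTCC (NFkB-like), TGANTCA (AP-1) or TATAAA (the box bound by TBP), searched on both strands.
CXCL8, chr4:73740419-73740568, plus strand: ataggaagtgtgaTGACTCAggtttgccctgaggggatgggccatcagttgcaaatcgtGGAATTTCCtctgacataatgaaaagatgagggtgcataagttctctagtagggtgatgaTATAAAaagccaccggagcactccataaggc
CXCL1, chr4:73869243-73869392, plus strand: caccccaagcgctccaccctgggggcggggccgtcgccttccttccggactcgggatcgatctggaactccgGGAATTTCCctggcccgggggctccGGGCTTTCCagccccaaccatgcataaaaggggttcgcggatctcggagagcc
CXCL2, chr4:74099196-74099345, minus strand: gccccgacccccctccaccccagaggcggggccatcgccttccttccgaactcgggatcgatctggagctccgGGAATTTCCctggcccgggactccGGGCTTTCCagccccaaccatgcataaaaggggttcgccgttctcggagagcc
CXCL3, chr4:74038690-74038839, minus strand: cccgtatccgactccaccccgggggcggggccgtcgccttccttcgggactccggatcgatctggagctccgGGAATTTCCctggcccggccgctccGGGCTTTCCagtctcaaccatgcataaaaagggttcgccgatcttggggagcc
CXCL5, chr4:73998678-73998827, minus strand: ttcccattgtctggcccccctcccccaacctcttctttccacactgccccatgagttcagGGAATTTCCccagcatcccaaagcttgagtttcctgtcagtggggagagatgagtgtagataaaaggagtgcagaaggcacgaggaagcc

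The letters GGAATTTCC stood 83 to 91 bases before the start of CXCL8 and 82 to 90 bases before that of CXCL5. In CXCL1 and CXCL3 they lay 70 to 78 bases before the start, and in CXCL2 69 to 77 bases. These 9 letters match the NFkB-like pattern on both strands. CXCL1, CXCL2 and CXCL3 held a further match, GGGCTTTCC, 45 to 53 bases before the start. Of the 7 members with a RefSeq promoter window (250 bases before the start and 50 after it), all 7 held GGNNNTTCC, as did 20.1% of 27305 such windows of human genes. The exact letters GGAATTTCC, singled out after the sequences were seen, were in 5 of the 7 and in 0.472% of all windows. CXCL10 had other matches between 102 and 176 bases before its start, and CCL20 had GGAAAACCC on the opposite strand 71 to 79 bases before its start. TGANTCA was found in CXCL8 only of the 7, 131 to 137 bases before the start, and in 7.76% of all windows. TATAAA was found in CXCL8 and CCL20, and in 12% of all windows. The CXCL1 and CXCL3 windows were identical at 82.5% of aligned positions, CXCL2 and CXCL3 at 73.8% and CXCL1 and CXCL2 at 71.9%, so matches in these 3 genes are not separate observations. A match of letters describes the sequence and does not show a binding site. CXCL16, CCL2 and CCL5 were not searched.

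Total counts on genes ranged from 21226451 to 34194273 per sample and overlapped between the groups, and 3 counts correspond to 0.0877 to 0.141 CPM (counts scaled to the total of the library), the limit that a count of 0 allows. Such floors and the intervals below cover counting error only. TNFAIP3, which encodes A20, had 4.92, 5.83, 5.59 and 5.54 CPM in control replicates 1 to 4 and 3.47, 3.01, 3.40 and 3.43 CPM in A20 siRNA replicates 1 to 4. Every A20 siRNA sample was thus below every control sample (log2 fold change -0.71, standard error 0.10, adjusted p = 0.00258 by edgeR over 13412 tested genes). A two-sided exact permutation test gave p = 0.0286, the least that 4 against 4 allows. The epithelial genes EPCAM, KRT8, KRT18 and CDX2 were read in every sample, and the 7 epithelial markers summed to 140.4 to 151.6 CPM with control siRNA and 138.1 to 146.3 CPM with A20 siRNA, whereas KRT19 and CDH1 had no read and VIL1 had 1 read in each of A20 siRNA replicates 3 and 4. Of 7 leukocyte markers, PTPRC, CD3E and FCGR3A were without a read, and the summed level of the 7 was 0.822 to 1.44 CPM with control siRNA and 0.778 to 1.27 CPM with A20 siRNA, mostly from CD68. The 5 fibroblast markers summed to at most 0.143 CPM and the 4 endothelial markers to at most 0.0998 CPM in any sample. COL3A1, DCN, LUM, CDH5 and KDR were without a read.

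Most of the 10 chemokine genes were silent or nearly silent in these cells, and 1 was abundant. CXCL5, CXCL10, CCL2 and CCL5 had 0 reads in all 8 samples, which allows at most 3 reads per sample. CCL20 had 1 read in control replicate 2, 1 read in A20 siRNA replicate 2 and none in the other samples. CXCL1, CXCL2, CXCL3 and CXCL8 had between 1 and 44 reads per sample. CXCL16 had 1553 to 2256 reads. The filter on low counts, which keeps a gene that reaches 0.388 CPM in at least 4 samples, retained CXCL8 and CXCL16 and left out the other 8. CXCL8 reached that level in 4 of 4 A20 siRNA samples and in 3 of 4 control samples, so it passed through the group in which it was higher.

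The counts hold only reads that mapped to 1 place in the genome, and CXCL1, CXCL2 and CXCL3 are close paralogs. All 75-base windows within the exons of CXCL8, CXCL10, CCL2 and CCL20 occurred once in the GRCh38 chromosomes, as did 99.7% of those of CXCL1, 99.9% of CXCL5, 99.9% of CXCL16, 95.2% of CXCL3, 91.4% of CXCL2 and 80.2% of CCL5. Counts of CXCL2, CXCL3 and CCL5 are therefore less certain than those of CXCL8. For CCL5, 804 of 1003 windows were unique. CXCL16 shares 172 exonic bases (6.16% of its exons) with MED11 and ZMYND15 on the other strand, and 17.3% of the CXCL5 exons overlap a gene on the other strand.

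CXCL8 (ENSG00000169429.10, chromosome 4, 73740519 to 73743716, plus strand, GRCh38) was the member whose samples separated by group. Control replicates 1 to 4 had 12, 10, 11 and 8 reads, and A20 siRNA replicates 1 to 4 had 44, 22, 23 and 24 reads. Scaled for library size, the control samples had 0.399, 0.391, 0.424 and 0.338 CPM. The A20 siRNA samples had 1.28, 0.788, 0.942 and 1.13 CPM. All 4 A20 siRNA samples lay above all 4 control samples, and the lowest of them, replicate 2, was still above the highest control. Groups did not overlap in this direction for 3.71% of all tested genes, against 3.9% in the other direction and 7.61% in either. The means were 0.388 ± 0.0362 CPM (SD, n = 4) and 1.03 ± 0.216 CPM (SD, n = 4), a log2 fold change of 1.41 (standard error 0.24) in the edgeR fit, or 2.66-fold. No gene among the 13412 tested had a larger log2 fold change, and 6.72% of them had a lower mean level than CXCL8. Counted over each group, 41 control reads and 113 A20 siRNA reads gave a ratio, scaled for the library totals, of 2.69 (95% exact interval 1.86 to 3.94, from counting error alone). In bulk RNA a larger number of cells with the transcript and more transcript per cell cannot be told apart.

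**Figure D1:**
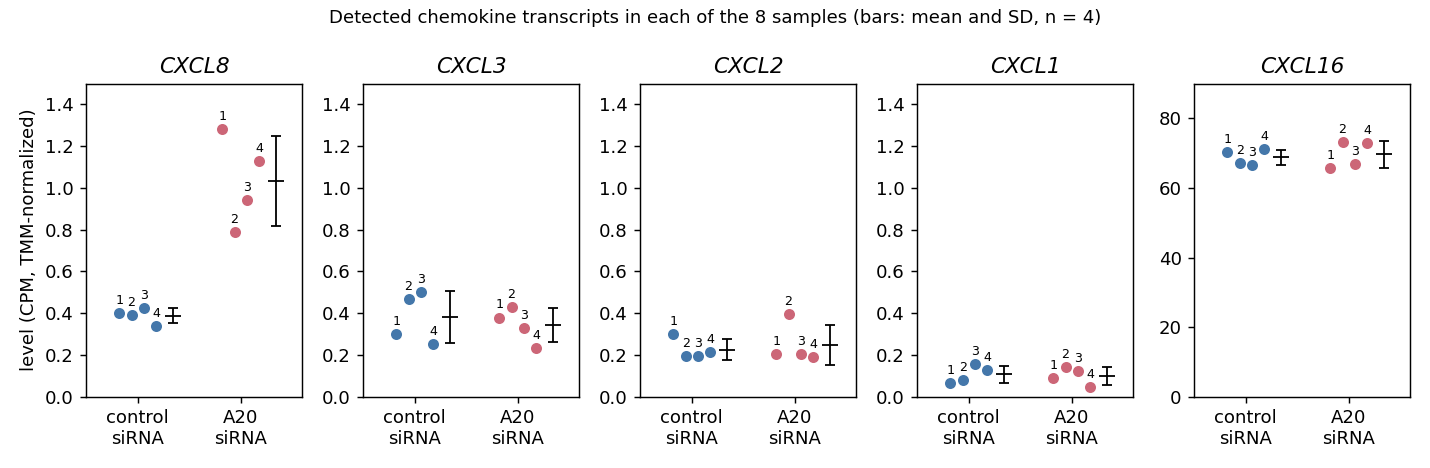
Level of the 5 chemokine transcripts with reads in every sample, as TMM-normalized CPM on a linear axis from 0 (the CXCL16 axis runs to 90), for control siRNA (blue) and A20 siRNA (red). Points are samples with their replicate number and bars are the mean and SD of 4 samples. The CXCL8 points of the A20 siRNA group (0.788 to 1.28 CPM) all lie above those of the control group (0.338 to 0.424 CPM), whereas the groups overlap for CXCL3, CXCL2, CXCL1 and CXCL16.

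Of the 2 members that were tested, 1 (CXCL8) was higher and 0 were lower at an adjusted p under 0.05 by edgeR, against 0.634% higher and 1.25% higher or lower among all tested genes. Because CXCL8 was chosen with this comparison known, nothing is read from that count or from the other calls given for the members. Without control replicate 4, 0 of 3 tested members were higher. limma-voom also gave 1 higher, and 0 members were lower at an unadjusted p under 0.05 by edgeR, limma-voom or DESeq2. With DESeq2 the fold change of CXCL8 was the same size (log2 fold change 1.41) but no adjusted p was given for it.

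The neutrophil chemokine paralogs of CXCL8 were faint in both groups. CXCL3 (chromosome 4, 74036589 to 74038807) had 9, 12, 13 and 6 reads with control siRNA and 13, 12, 8 and 5 reads with A20 siRNA, in the order of replicates 1 to 4. CXCL2 (chromosome 4, 74097040 to 74099196) had 9, 5, 5 and 5 reads with control siRNA and 7, 11, 5 and 4 with A20 siRNA. CXCL1 (chromosome 4, 73869393 to 73871308) had 2, 2, 4 and 3 reads with control siRNA and 3, 4, 3 and 1 with A20 siRNA. The groups overlapped for each of these 3 genes. The ratio of A20 siRNA to control reads, scaled in the same way, was 0.926 for CXCL3 (95% exact interval 0.578 to 1.48), 1.10 for CXCL2 (0.609 to 1.99) and 0.975 for CXCL1 (0.383 to 2.48), from counting error alone. Taken as one pool, the 8 members other than CXCL8 and CXCL16 had 76 reads with control siRNA and 77 with A20 siRNA, a scaled ratio of 0.988 (0.710 to 1.37). CXCL8 made up 33.3 to 37.5% of the reads of the 9 members other than CXCL16 in the control samples and 44 to 70.6% in the A20 siRNA samples. The groups did not overlap in this share either, which rests on the same CXCL8 counts.

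CXCL16 (ENSG00000161921.14, chromosome 17, 4733533 to 4739928, minus strand) was the only abundant member. Its level was 70.2, 67.1, 66.6 and 71.1 CPM in control replicates 1 to 4 and 65.8, 73.1, 66.8 and 73.0 CPM in A20 siRNA replicates 1 to 4. The lowest and the highest samples were both in the A20 siRNA group, and the groups overlapped throughout. Control siRNA samples averaged 68.8 ± 2.25 CPM and A20 siRNA samples 69.7 ± 3.94 CPM (SD, n = 4 each). The fitted log2 fold change was 0.02 (standard error 0.04), and it turned to -0.01 without A20 siRNA replicate 2 or 4 and to -0.0006 without control replicate 3. CXCL16 held 97.1 to 98.7% of the reads of all 10 members. Of all tested genes 72% had a lower mean level.

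Levels were also divided by exonic length, merged over all annotated transcripts, and CXCL16 stood far above the other members. For CXCL3 the merged exons form 1 stretch of 2219 bases that spans the whole gene. Its length may thus exceed that of the spliced mRNA, and its level per kb may be too low. Merged exons may also be too long for other genes, such as CXCL8 (3 stretches, 2588 bases) and CXCL2 (2 stretches, 1398 bases). The order of levels per kb therefore holds only for these lengths. With control siRNA CXCL16 had 24.6 ± 0.807 CPM per kb (SD, n = 4). CXCL3 followed at 0.172 ± 0.0554, CXCL2 at 0.161 ± 0.0360 and CXCL8 at 0.150 ± 0.0140 CPM per kb, and the samples of these 3 overlapped, so their order is not resolved. CXCL1 had 0.0782 ± 0.0303 CPM per kb, and its highest sample (0.113) was below the lowest of CXCL3 (0.114), CXCL2 (0.138) and CXCL8 (0.131), although CXCL1 and CXCL3 differ there by less than the worth of 1 read. With A20 siRNA CXCL8 came second at 0.400 ± 0.0835 CPM per kb, and its lowest sample (0.304) was above the highest sample of CXCL2 (0.282) and of CXCL3 (0.194). CXCL2 (0.177 ± 0.0699) and CXCL3 (0.155 ± 0.0374) again overlapped. CXCL16 remained far above CXCL8 in every sample, at 23.6 to 26.2 CPM per kb.

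**Figure D2:**
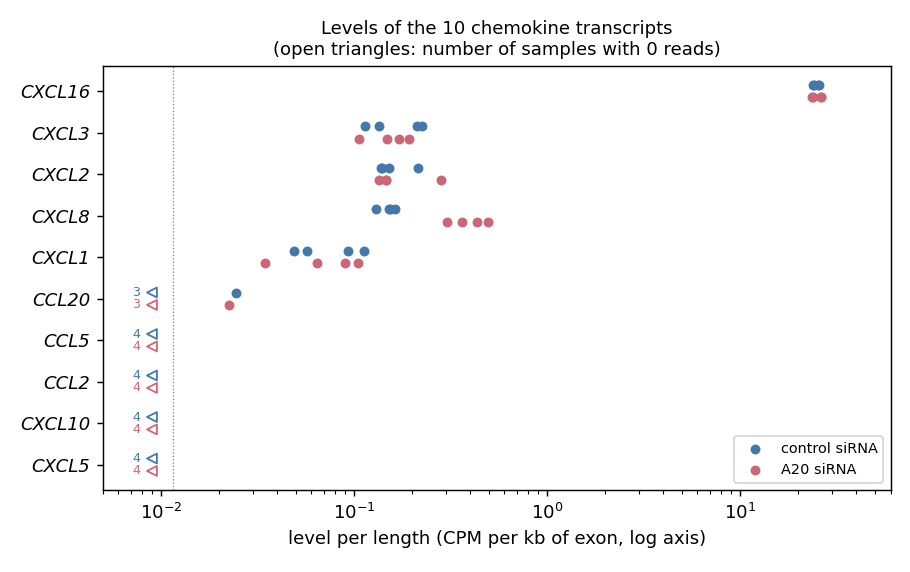
Level of the 10 chemokine transcripts per kb of exon (CPM per kb, log axis), one point per sample, for control siRNA (blue) and A20 siRNA (red). Open triangles give the number of samples without a read and stand off the scale. CXCL16 lies at 23.6 to 26.2 CPM per kb, CXCL8 moves from the range of CXCL2 and CXCL3 to 0.304 to 0.496 CPM per kb with A20 siRNA, and 4 genes have no read in any sample.

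Within 500 kb of the start of CXCL8 lie 14 other protein-coding genes, a window chosen after the CXCL8 values were seen. The other chemokine genes CXCL6, PF4V1, PF4, PPBP and CXCL5 and the nearer gene on the other side, RASSF6, had 0 reads in all samples. ALB and AFM were without reads and AFP had 2 reads in total, both with A20 siRNA. The only well expressed genes stood near the ends of the window. ANKRD17, with its start at -481.7 kb, had 286.6 ± 7.31 CPM with control siRNA and 298.5 ± 9.5 CPM with A20 siRNA (SD, n = 4 each; log2 fold change 0.06, standard error 0.03). MTHFD2L, a mitochondrial folate enzyme gene at 373.7 kb, had 28.8 ± 2.44 and 26.1 ± 1.21 CPM (SD, n = 4 each; log2 fold change -0.15, standard error 0.05). Both log2 fold changes were small beside the 1.41 of CXCL8.

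**Figure D3:**
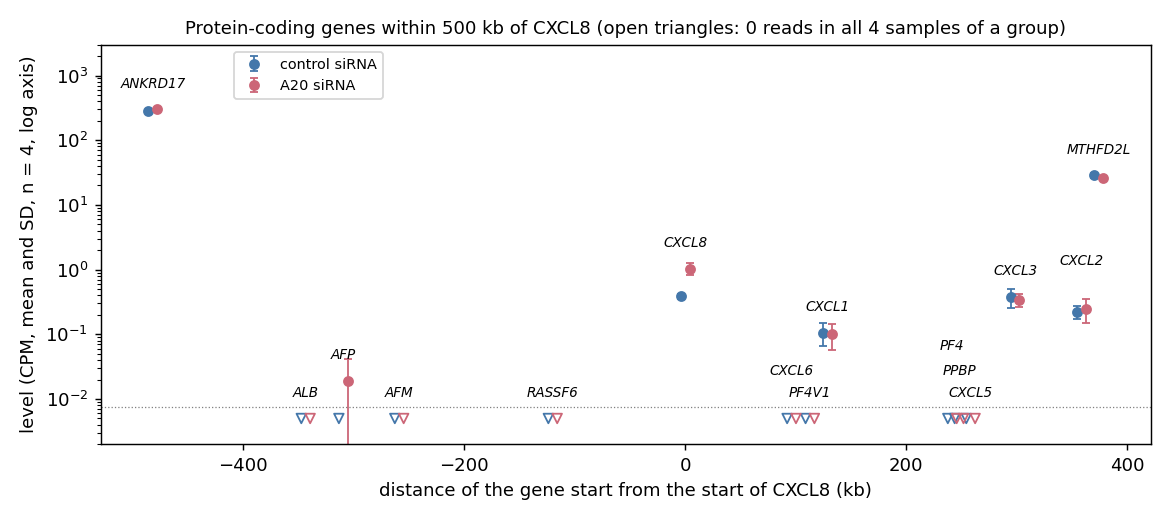
Mean level (CPM, log axis) of the protein-coding genes around CXCL8, placed by the distance of their start from that of CXCL8 in kb, for control siRNA (blue) and A20 siRNA (red). Bars are the SD of 4 samples, a bar that passes below 0 is cut at the axis, and open triangles mark groups without a read. CXCL8 stands at 0.388 and 1.03 CPM, whereas the 2 marks nearly coincide for ANKRD17 and MTHFD2L.

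The receptors of these chemokines were faint. Of 23 chemokine receptor genes 12 had no read in any sample, CXCR1 and CXCR3 among them, and CXCR2 had 1 read in all. CXCR6, the receptor of CXCL16, had 14, 11, 10 and 7 reads with control siRNA and 12, 12, 5 and 8 with A20 siRNA, and the groups overlapped. Only CCRL2, an atypical receptor, and CCR10, a receptor of CCL27 and CCL28, were tested. CCRL2 had 8.44 ± 0.613 and 8.32 ± 0.813 CPM (SD, n = 4 each; log2 fold change -0.01, standard error 0.08), and CCR10 had 3.07 ± 0.494 and 2.95 ± 0.466 CPM (log2 fold change -0.04, standard error 0.14). Neither passed by edgeR (adjusted p = 0.964 and 0.927), with 0 of 2 at an unadjusted p under 0.05 and 0 by DESeq2 and limma-voom. DESeq2 withheld an adjusted p from 1 of these receptors, and from 1, 1, 5, 1 and 4 genes of the cytokine, protease, transcription factor, mRNA decay and NFkB target lists below. Of the 36 other chemokine ligand genes, 30 had no read in any sample and none was tested. CXCL14 had the most reads among them, 3 with control siRNA and 7 with A20 siRNA.

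Of 18 other inflammatory cytokine genes, IL6, TNF, LTA, LTB and TNFSF10 had no read, 5 were tested, and the remaining 8 had 0 to 17 reads per sample and were not tested. IL32 had 124.6 ± 3.49 and 124.7 ± 5.66 CPM, LIF, an interleukin 6 family cytokine, 79.6 ± 0.501 and 78.4 ± 1.81 CPM, and CSF1, the macrophage growth factor, 15.8 ± 0.585 and 15.9 ± 0.615 CPM with control and A20 siRNA (SD, n = 4 each). None of the 5 passed by edgeR, DESeq2 or limma-voom, and 1 (IL11, log2 fold change -0.17, adjusted p = 0.230) had an unadjusted p under 0.05 by edgeR. The median log2 fold change of the 5 was 0.0029, beside 0.0027 over all tested genes. Of 7 proteases that release or trim chemokines 4 were tested and 0 passed by any of the 3 tools, with 0 at an unadjusted p under 0.05. ADAM10, a sheddase of CXCL16, had 195.7 ± 4.30 and 195.8 ± 8.71 CPM (log2 fold change -0.0008, standard error 0.03), and ADAM17 had 57.3 ± 1.84 and 55.7 ± 1.87 CPM.

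All 26 listed transcription factors and inhibitors that act on chemokine promoters were tested, and 0 passed by edgeR, DESeq2 or limma-voom. Their median log2 fold change was -0.02. By edgeR 3 were higher and 3 lower of the 26 at an unadjusted p under 0.05 (all tested genes, 8.81% and 7.37%). The higher ones were REL, NFKBIZ and STAT3. The lower ones were the AP-1 subunit genes JUNB (log2 fold change -0.09) and JUND (-0.07), and IRF3 (-0.07). By edgeR these lower genes had adjusted p-values of 0.224, 0.306 and 0.243. The most abundant were JUN (722.2 ± 8.06 and 706.5 ± 10.8 CPM), FOSL1 (302.2 ± 6.13 and 296.9 ± 6.41 CPM) and EGR1 (147 ± 2.52 and 144.7 ± 2.78 CPM, SD, n = 4 each). JUN and FOSL1 encode subunits of AP-1. REL, the NFkB subunit c-Rel, had the largest positive log2 fold change of the list (0.25, standard error 0.07, adjusted p = 0.0752), and its groups overlapped (11.3 to 14.3 and 13.7 to 16.4 CPM). NFKBIZ had a log2 fold change of 0.15 (adjusted p = 0.0989) and STAT3 of 0.07 (adjusted p = 0.164 by edgeR). CPM of the groups did not overlap for NFKBIZ (22.2 to 25.0 and 25.3 to 26.6) and STAT3 (98.9 to 103 and 103.7 to 107.8). Nor did they for the lower genes JUNB, JUND and IRF3. Over all tested genes this held for 3.71% in the higher direction and 3.9% in the lower. RELA (log2 fold change -0.01), NFKB1 (0.02) and the NFkB inhibitor NFKBIA (0.05) had adjusted p-values of 0.878, 0.756 and 0.564. REL, NFKBIZ, STAT3, RELA, NFKB1 and NFKBIA were picked from the list after their values were seen.

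Among genes that are induced with CXCL8 by NFkB in epithelial cells, changes went both ways. Of 15 listed genes 12 were tested, and 2 were higher and 2 were lower at an adjusted p under 0.05 by edgeR (all tested genes, 0.634% higher and 0.611% lower). DESeq2 on the filtered genes called 1 higher and 1 lower, and limma-voom called 2 higher and 2 lower. This list, like the others here, was chosen with earlier results of these data known, so the counts are a description. The median log2 fold change of the 12, TNFAIP3 included, was -0.01. TRAF1, an adaptor of the TNF receptor family, rose from 1.48 ± 0.159 to 2.41 ± 0.313 CPM (SD, n = 4 each; log2 fold change 0.72, standard error 0.15, adjusted p = 0.0276). BIRC3, an inhibitor of apoptosis, rose from 11.1 ± 0.813 to 13.7 ± 0.860 CPM (log2 fold change 0.30, standard error 0.06, adjusted p = 0.0333). BCL2A1, an antiapoptotic gene of the BCL2 family, fell from 123.3 ± 5.29 to 109.8 ± 3.80 CPM (log2 fold change -0.17, standard error 0.03, adjusted p = 0.0211). TNFAIP3, the target of the siRNA, was the other gene that fell. Its fall was set by the treatment, so BCL2A1 was the only untargeted gene of the list called lower. ICAM1 (log2 fold change -0.09, adjusted p = 0.205) and TNFAIP2 (0.06, adjusted p = 0.479) did not pass. Leaving out 1 sample took TRAF1 above the threshold without control replicate 2, 3 or 4 (adjusted p = 0.0687, 0.0696 and 0.102) or A20 siRNA replicate 3 (0.102). It took BIRC3 and BCL2A1 above it without control replicate 2 (0.0844 and 0.0592), control replicate 4 (0.119 and 0.0778) or A20 siRNA replicate 3 (0.121 and 0.0990).

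Of 15 genes that act on the decay of AU-rich or structured mRNAs, which include chemokine mRNAs, 1 fell and 0 rose at an adjusted p under 0.05 by edgeR, and DESeq2 and limma-voom gave the same counts (all tested genes by edgeR, 0.611% lower and 0.634% higher). At an unadjusted p under 0.05 edgeR had 3 higher and 3 lower of the 15, beside 8.81% higher and 7.37% lower of all tested genes. The gene was DCP2, a decapping enzyme, with 109.7 ± 2.76 CPM with control siRNA and 100.2 ± 1.38 CPM with A20 siRNA (SD, n = 4 each; log2 fold change -0.13, standard error 0.03, adjusted p = 0.0234). It did not pass without control replicate 2 (adjusted p = 0.0718), control replicate 3 (0.0696) or A20 siRNA replicate 3 (0.0806). ZFP36, which encodes the mRNA destabilizer tristetraprolin, had a log2 fold change of 0.17 (adjusted p = 0.119) and was named after its value was seen. TIAL1 (log2 fold change 0.08, adjusted p = 0.0994) and ELAVL1 (-0.07, adjusted p = 0.100) had smaller adjusted p-values by edgeR. The median log2 fold change of the 15 was 0.02.

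**Figure D4:**
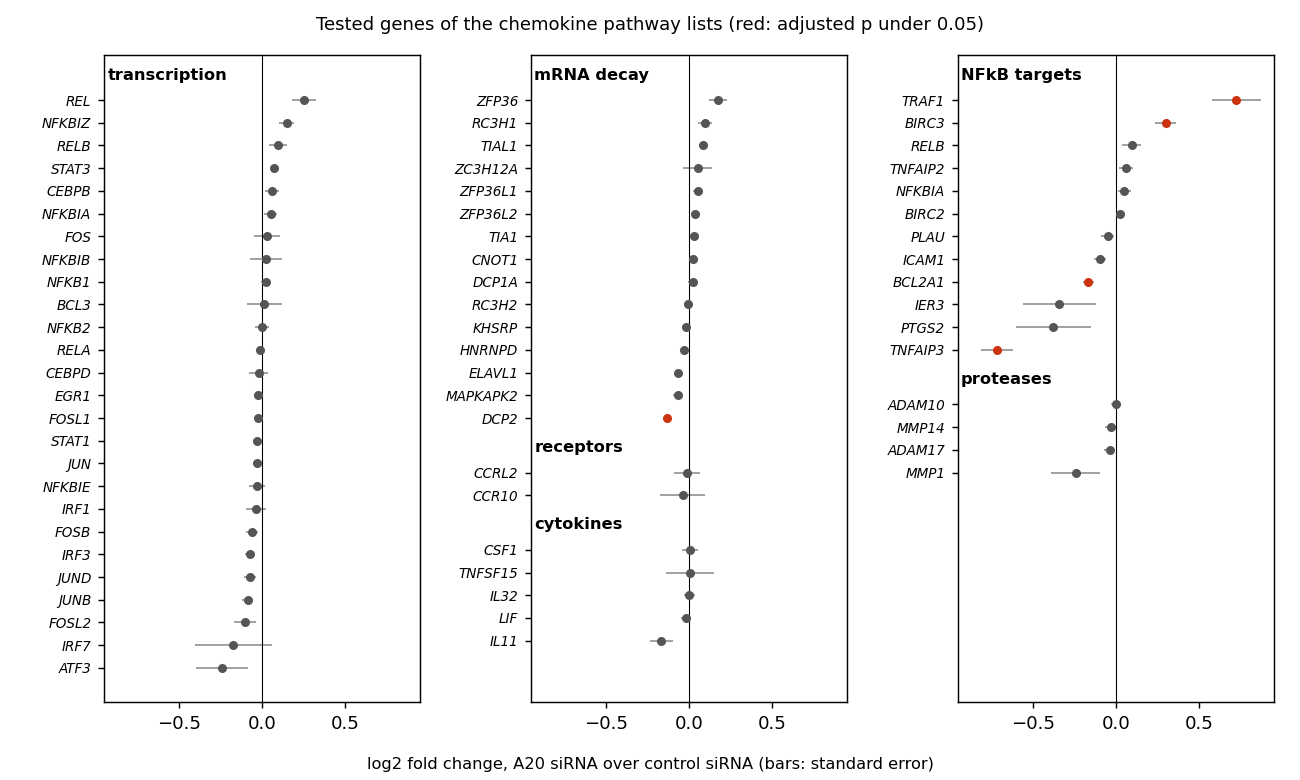
Log2 fold change of A20 siRNA over control siRNA for the tested genes of each list, with standard errors as bars and genes at an adjusted p under 0.05 in red. Most points lie near 0, and the red points are TRAF1 (0.72) and BIRC3 (0.30) on the right and BCL2A1 (-0.17), DCP2 (-0.13) and TNFAIP3 (-0.71) on the left.

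The tested genes whose profile over the 8 samples came nearest to that of CXCL8 were IGSF6, ENSG00000279879, LINC02604, ENSG00000261428 and PEAR1. Likeness was the root mean square difference of log2 CPM centred on each gene's mean, which was 0.207 for IGSF6 and 0.327 to 0.338 for the others, against a median of 0.653 over all tested genes. IGSF6 had 8, 6, 4 and 4 reads with control siRNA and 20, 11, 11 and 12 with A20 siRNA, in replicates 1 to 4. PEAR1 had 53, 36, 32 and 32 reads and 79, 66, 61 and 57 reads. Both had the most reads in A20 siRNA replicate 1, but that library was the deepest, so the order of reads is not the order of levels. With control and A20 siRNA the levels were 0.206 ± 0.0532 and 0.498 ± 0.0908 CPM for IGSF6. For PEAR1 they were 1.44 ± 0.227 and 2.46 ± 0.167 CPM (SD, n = 4 each). These genes were selected from 13412 for this likeness over 8 samples, so the values are a description.

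**Figure D5:**
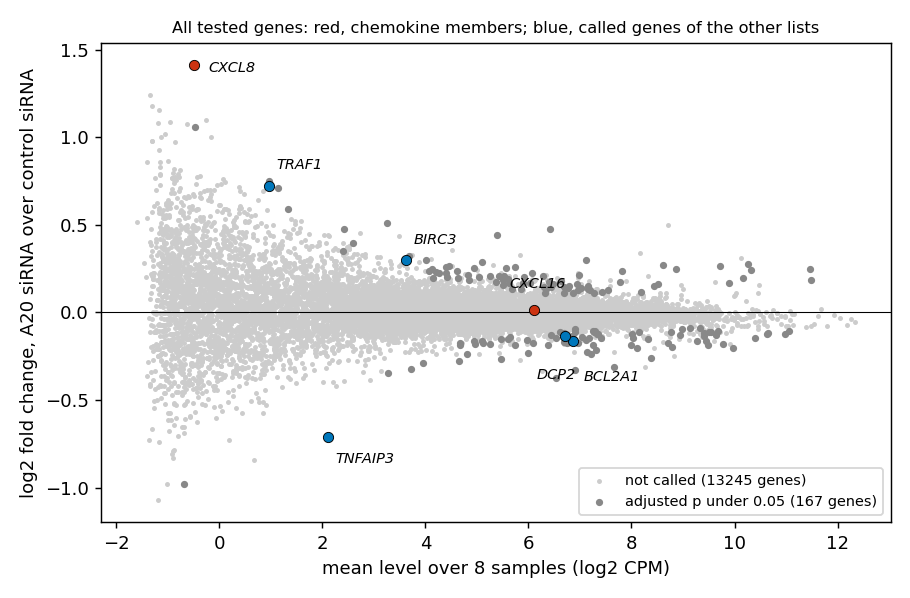
Log2 fold change of A20 siRNA over control siRNA against mean level (log2 CPM over 8 samples) for all 13412 tested genes. Light points are not called, dark grey points have an adjusted p under 0.05, the 2 tested chemokine members are red and the called genes of the other lists are blue. CXCL8 is the highest point, at 1.41, among genes of low level where the scatter is widest, and CXCL16 lies at 0.02.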

How the data were processed

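Per the labels and the paper's methods, the authors trimmed single reads with Trimmomatic, mapped them to GRCh38.p7 with STAR and deposited counts per gene, raw and not normalized, of reads with a unique position. The GENCODE release, strand setting and versions are not given in the sources used here. Of 57992 identifiers 56948 matched GENCODE release 44, from which symbols, positions and merged exonic lengths were taken. SOD2 had no match.

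Counts were filtered with filterByExpr (minimum count 10), normalized by TMM and tested with edgeR 4.0.16 (quasi-likelihood, R 4.3.3), 4 against 4 with the siRNA as the only term, with Benjamini-Hochberg adjustment over 13412 genes (threshold 0.05). The code was tested on simulated data. Levels are CPM with TMM factors, and a prior count of 2 was used for log2 CPM. DESeq2 1.42.0 and limma 3.58.1 were alternatives, with other filters, RLE factors, a replicate block and each sample left out. Within groups, replicate pairs differed by more than sampling noise (chi-square per degree of freedom 1.31 to 3.69).

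The 10 genes and the lists were chosen with earlier results of these data known. Named were the 10 genes, TNFAIP3, listed genes under the threshold (otherwise the 3 most abundant tested), receptors and chemokines averaging at least 10 counts, and the 5 profiles nearest to CXCL8. Genes named outside this rule, such as CXCR6, the silent genes and the genes around CXCL8, were chosen after their values were seen. One leukocyte marker is not reported here, and protein sequences were not used here.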

Additional observations from a re-analysis of the deposited data

Results flagged for a closer look

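Each gene with reads that the naming rule chose was examined in each siRNA group for a sample far from the other replicates, 54 groups of 4 samples in all. In 4 groups the gap from the farthest sample to its nearest neighbour exceeded the 95% critical value of Dixon's test, where chance gives about 1 in 20 groups, or 2.7. For CXCL2, A20 siRNA replicate 2 lay highest at 0.394 CPM against 0.188 to 0.205 CPM in the other replicates (11 reads against 4 to 7). For CCL20, control replicate 2 (0.0391 CPM) and A20 siRNA replicate 2 (0.0358 CPM) stood apart from samples at 0, each on 1 read. A single read among zeros always exceeds the critical value. Both CCL20 flags were thus fixed in advance, and the 4 flagged groups cannot be weighed against 2.7. For TNFAIP3, A20 siRNA replicate 2 was lowest at 3.01 CPM, against 3.40 to 3.47 CPM in the other replicates. A20 siRNA replicate 2 was also the lowest of its group for CXCL8 (0.788 CPM), and without it the log2 fold change of CXCL8 was 1.53.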

How the results depend on the processing

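Across 6 other settings in which it was tested, CXCL8 had log2 fold changes of 1.36 to 1.41, and 1.25 to 1.53 with 1 sample left out. CXCL16 stayed at 0.01 to 0.02, and at -0.01 to 0.04 with 1 sample left out. TNFAIP3 kept its direction under all 15 alternatives, at -0.77 to -0.67 with 1 sample left out, and its call in all but both DESeq2 fits, which gave it no adjusted p. The chemokine members called higher numbered 0 with at least 10 counts in every sample, where CXCL8 was not tested, and 0 with DESeq2 on the filtered genes or on all genes with a count, where its adjusted p was not given. They numbered 0 to 1 with 1 sample left out (0 without control replicate 4, where CXCL8 had a log2 fold change of 1.36).

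Over all genes, 82 were lower and 85 higher. Without a low-count filter the numbers were 310 and 314, and DESeq2 on all genes with a count gave 142 lower. With 1 sample left out, 6 (without A20 siRNA replicate 3) to 430 (without control replicate 1) were lower and 6 to 567 higher, with the same samples at the ends, and each of the 8 samples moved the lower count by over 1.5 times. The genes of the other lists called higher numbered 2, against 1 with DESeq2 on the filtered genes and 0 with DESeq2 on all genes with a count, where TRAF1 and BIRC3 received no adjusted p, and 0 to 5 with 1 sample left out (5 without control replicate 1, 1 without control replicate 3 and 0 without control replicate 2 or 4 or A20 siRNA replicate 3). Those called lower numbered 3, with the siRNA target TNFAIP3 among them. With 1 sample left out they numbered 1 to 5 (5 without control replicate 1 and 1 without control replicate 2 or A20 siRNA replicate 3). The causes of these shifts were not tested.

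With the replicate block, 212 genes were lower and 262 higher, and CXCL8 had a log2 fold change of 1.41. Same-numbered samples correlated in their deviations by -0.0098 to 0.0838, and 4 of 8 samples correlated best with their own number. More genes were called with the block than in the main fit. These values do not settle whether the numbers are pairs, and the main fit did not take them as pairs.

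Depth limited the faint members: CXCL1, CXCL2 and CXCL3 had 1 to 13 reads per sample, and the intervals of their ratios hold both increases and decreases.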
